A study of Mus musculus with 48 samples.

Results

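The 48 RNA-seq libraries of this study fell into a pair of classes chosen by the level of Ttr, the gene of transthyretin. A library was put in the Ttr-high class where Ttr reached 100 CPM (the count of a gene per 1000000 counts of that library), and in the Ttr-low class otherwise. The rule put 20 libraries of 48 in the Ttr-high class and 28 in the Ttr-low class. The classes were read from the data and are not groups of the study. The difference of Ttr between the classes is therefore described here and not tested.

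Each library came from the merged hippocampi of 1 female C57BL/6 mouse aged 3 months. The mice were offspring of 5-Htt+/- sires and C57BL6/J dams, were labelled 5-Htt+/+ or 5-Htt+/- for the serotonin transporter gene, and came either from undisturbed dams or from dams that were restrained in the last week of pregnancy (prenatal stress). Prenatally stressed offspring had been split by their behaviour in the 3-chamber sociability test into animals called socially affected (SA) or unaffected (SU). The 6 design groups were 5-Htt+/+ control, SA and SU, with 8 libraries each, and 5-Htt+/- control, SA and SU, with 7, 8 and 9 libraries. Litters were not given, and the behavioural cut-off was set on these mice, so SA and SU are not randomised groups. Slc6a4, the serotonin transporter gene, separated the genotypes completely, but ran from 0 to 0.264 CPM in the 24 libraries labelled 5-Htt+/+ and from 12.6 to 17.3 CPM in the 24 labelled 5-Htt+/-. This order was not what the labels name, so genotype directions below are those of the labels. Total counts ran from 16488405 to 38213754 per library. Total counts, genes with a read and the mitochondrial share did not differ detectably between the Ttr classes (permutation tests, adjusted p = 0.667, 0.998 and 0.667), and the mitochondrial share was 5.15% ± 0.409 (SD, n = 20) in the Ttr-high and 5.01% ± 0.492 (SD, n = 28) in the Ttr-low class.

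The choroid plexus is a folded sheet of ciliated epithelium over a stroma with leaky, fenestrated vessels. It hangs into the brain ventricles, in the lateral ventricle along the edge of the hippocampus, and secretes cerebrospinal fluid. Its epithelium makes transthyretin, which carries thyroxine, and expresses the transcription factor Otx2, folate receptor alpha (Folr1), which moves folate into the fluid, and the potassium channel Kir7.1 (Kcnj13).

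OTX2 is a transcription factor of this epithelium, and 3 promoters of genes that were higher in the Ttr-high class (below) are printed to show where a core sequence of its kind stands in them. The short core TAATCC, to which OTX2-type homeodomains bind, or its reverse complement GGATTA, was searched on both strands of RefSeq promoter windows (GRCm38.p6, from 250 bases before to 50 after a gene start). The 3 choroid plexus genes with the smallest p among those whose window held it were Otx2 itself, Abca4 (a retinoid transporter) and Ace (angiotensin-converting enzyme). The match is in capitals, and each window is written 5′ to 3′ on the strand of its gene:

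Otx2, 1 of its 4 windows, chr14:48665060-48665359, minus strand: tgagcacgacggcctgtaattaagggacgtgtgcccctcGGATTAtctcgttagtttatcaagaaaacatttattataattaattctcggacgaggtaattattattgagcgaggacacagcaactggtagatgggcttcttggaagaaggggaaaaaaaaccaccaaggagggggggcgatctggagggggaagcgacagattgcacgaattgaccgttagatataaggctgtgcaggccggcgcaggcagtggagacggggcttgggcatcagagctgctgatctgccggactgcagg

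Abca4, chr3:122044210-122044509, plus strand: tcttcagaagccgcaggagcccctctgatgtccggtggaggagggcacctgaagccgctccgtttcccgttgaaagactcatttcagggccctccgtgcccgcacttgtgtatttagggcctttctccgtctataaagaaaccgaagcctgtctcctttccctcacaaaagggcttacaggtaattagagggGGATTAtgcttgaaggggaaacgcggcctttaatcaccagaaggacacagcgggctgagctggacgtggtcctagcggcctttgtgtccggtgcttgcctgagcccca

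Ace, 1 of its 2 windows, chr11:105967698-105967997, plus strand: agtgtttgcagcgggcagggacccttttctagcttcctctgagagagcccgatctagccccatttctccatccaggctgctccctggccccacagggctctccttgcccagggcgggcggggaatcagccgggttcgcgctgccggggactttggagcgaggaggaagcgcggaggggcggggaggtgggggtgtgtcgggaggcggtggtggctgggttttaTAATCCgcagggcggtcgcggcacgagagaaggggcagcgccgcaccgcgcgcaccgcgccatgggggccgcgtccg

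The matches began 211 bases, 58 bases and 27 bases before the start on which the printed window is set in Otx2, Abca4 and Ace. The printed Otx2 window lies inside the counted gene (chr14, 48657679 to 48667644), so that start is an alternative, internal one. Of the genes called higher in the Ttr-high class (below), 173 of 249 had a RefSeq window and 26 of them, or 15.03%, held the core in at least 1 window. The share was 7.47% over the 15114 tested genes with a window and 8.14% over all 27025 genes of the table. Counted by window, it was 12.1% of the windows of the called genes and 7.06% of all 32851 windows. Of the choroid plexus genes called higher, 6 of 41 held it (Otx2, Abca4, Ace, Vat1l, Igf2 and Car14), and none of the windows of Cldn2, Tmem72, Kcne2, Slc4a5 or F5 did. A match of 6 letters describes these windows and is not a binding site.

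Ttr ranged from 222 to 779 CPM in the Ttr-high class, with a median of 462 CPM, and from 4.83 to 34.7 CPM in the Ttr-low class, with a median of 10.9 CPM. No library lay between the class edges. The lowest Ttr-high library (5-Htt+/- SU replicate 2, 222 CPM) stood 6.41 times above the highest Ttr-low library (5-Htt+/+ SA replicate 5, 34.7 CPM), so limits of 50 or 200 CPM gave the same classes. Ttr was read in every library: the Ttr-low libraries held 94 to 908 Ttr reads and the Ttr-high libraries 4235 to 24144. The Ttr-low libraries were therefore low in Ttr rather than free of it.

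**Figure D1:**
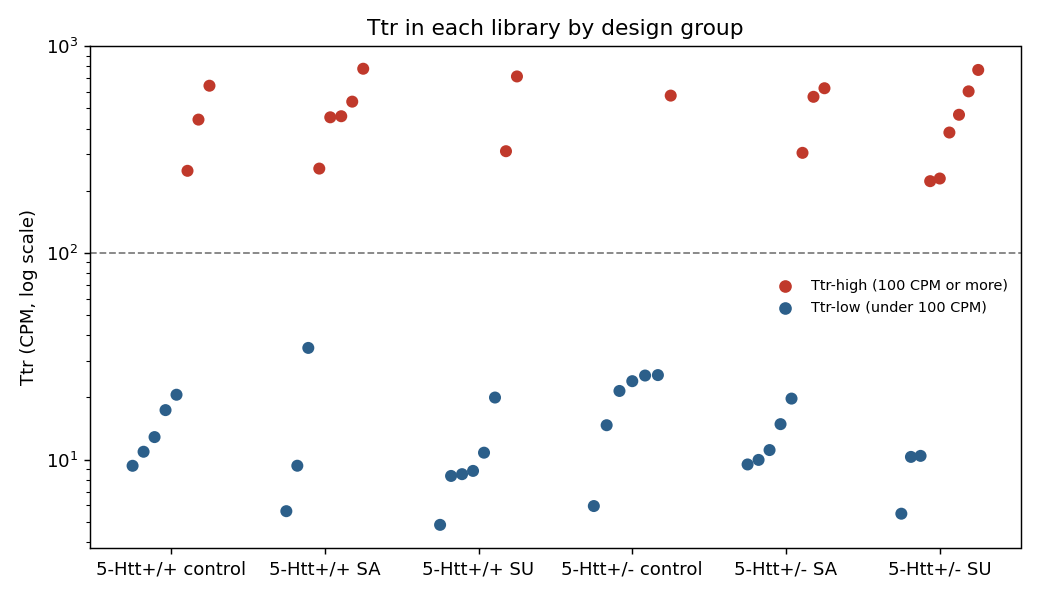
Ttr in each of the 48 libraries (points, CPM on a log axis) by design group, with the limit of 100 CPM as a dashed line. The 20 Ttr-high libraries (red) lie at 222 CPM or above and the 28 Ttr-low libraries (blue) at 34.7 CPM or below, and all 6 groups hold both.

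All 6 design groups held libraries of both classes. The Ttr-high libraries were 3 of 8 in 5-Htt+/+ control, 5 of 8 in 5-Htt+/+ SA and 2 of 8 in 5-Htt+/+ SU. In the groups labelled 5-Htt+/- they were 1 of 7 in control, 3 of 8 in SA and 6 of 9 in SU. By genotype label the counts were equal, at 10 of 24 each, and by condition they were 4 of 15 control, 8 of 16 SA and 8 of 17 SU libraries. The classes were not detectably unequal over the 6 groups, the genotypes or the conditions (two-sided Fisher-Freeman-Halton exact tests, p = 0.244, 1 and 0.382, adjusted p = 0.574, 1 and 0.574). The median of Ttr followed which class held most of a group: 355 CPM in 5-Htt+/+ SA (5.63 to 779) and 229 CPM in 5-Htt+/- SU (5.47 to 768), against 9.80 to 23.95 CPM in the other 4 groups. The SA share minus the SU share was thus positive in the libraries labelled 5-Htt+/+ and negative in those labelled 5-Htt+/-, a difference of 66.7 percentage points (permutation test of the labels of 33 libraries, p = 0.0736, computed after the counts were seen).

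The label of choroid plexus was then checked against other genes of its epithelium. Folr1 ran from 1.45 to 7.23 CPM (median 3.05) in the Ttr-high class and from 0.0514 to 0.573 CPM (median 0.290) in the Ttr-low class. Otx2 ran from 2.01 to 7.29 CPM (median 4.001) and from 0.209 to 1.91 CPM (median 0.615). The classes did not overlap in either gene. Kcnj13 ran from 3.41 to 12.2 CPM (median 6.996) in the Ttr-high class and from 0.873 to 3.63 CPM (median 1.40) in the Ttr-low class, so that the classes touched. The highest Ttr-low library for Kcnj13 was 5-Htt+/- control replicate 4. With the design groups as a term, the log2 fold changes (Ttr-high over Ttr-low) were 3.61 ± 0.22 (SE) for Folr1, 2.60 ± 0.18 for Otx2 and 2.33 ± 0.14 for Kcnj13. Kcnj13 lies within another gene called higher, Gigyf2, and no source used here gives the strand setting of the counting.

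Across the other genes, the classes differed almost only upwards. With edgeR's quasi-likelihood test, the design groups as terms and Benjamini-Hochberg adjustment over all 31208 tested genes, 249 genes other than Ttr were called higher in the Ttr-high class at an adjusted p under 0.05, which is 0.798% of the genes tested. Lower calls numbered 4, or 0.0128%. The median log2 fold change over all tested genes was -0.01. Of the 249 genes, 214 were protein coding, 89 were more than 2-fold higher and 31 more than 4-fold higher, and 236 had a higher mean in the Ttr-high libraries of all 6 design groups. Together they took 1945 ± 348 CPM (SD, n = 20) in the Ttr-high and 1174 ± 73.3 CPM (SD, n = 28) in the Ttr-low class. In 20 genes every Ttr-high library lay above every Ttr-low library, which is 0.0641% of the genes tested. In bulk tissue, more cells of a type and more RNA per cell cannot be told apart.

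Of the choroid plexus epithelium list, 50 of 65 members besides Ttr were called higher, or 76.9%, against 0.798% of all genes. None was called lower, and the median log2 fold change of the list was 0.88. The gene lists were chosen with earlier results of these data known. Shares of list members called are therefore not independent support for the label of choroid plexus. Among genes for secreted, surface or enzyme proteins, 22 of 23 were called higher, with a median of 1.52. Tmem72, which encodes a transmembrane protein, ran from 2.58 to 12.9 CPM in the Ttr-high and from 0.165 to 1.07 CPM in the Ttr-low class, a log2 fold change of 4.09 ± 0.18 (edgeR, adjusted p = 5.97e-23). F5, coagulation factor V, ran from 4.59 to 19.0 CPM and from 0.565 to 1.91 CPM, a log2 fold change of 3.41 ± 0.17 (edgeR, adjusted p = 1.84e-21). The classes were separate in both. Enpp2, the gene of autotaxin, which makes lysophosphatidic acid, was read at 231 to 691 CPM in the Ttr-high class and already at 102 to 163 CPM in the Ttr-low class, and its log2 fold change was 1.80 ± 0.10 (edgeR, adjusted p = 8.41e-20). This member of the list thus had the higher floor in the Ttr-low libraries and a smaller fold, yet the classes were separate. 1500015O10Rik, which encodes the secreted peptide precursor augurin, rose by 2.70 ± 0.14 and Prr32 by 2.84 ± 0.17 on the log2 scale (edgeR, adjusted p = 1.84e-20 and 2.24e-18). Gm29155, at 2.88 ± 0.15, overlaps 1500015O10Rik and cannot be counted apart from it with certainty.

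Genes for the movement of ions, water and solutes were called higher in 16 of 26 cases, with a median of 0.37. Kcne2, an accessory subunit of potassium channels, ran from 1.65 to 7.43 CPM in the Ttr-high and from 0.102 to 0.497 CPM in the Ttr-low class, where its median library held 5 reads (log2 fold change 4.16 ± 0.20, edgeR, adjusted p = 1.48e-21). Slc4a5, a sodium bicarbonate cotransporter, ran from 2.39 to 9.57 CPM and from 0.192 to 0.955 CPM (3.50 ± 0.17). Clic6, a chloride intracellular channel protein, ran from 8.78 to 28.0 CPM and from 1.08 to 3.89 CPM (2.87 ± 0.15). Aqp1, the water channel aquaporin 1, ran from 1.33 to 4.93 CPM and from 0.103 to 0.676 CPM (2.98 ± 0.17). In all 4 genes the lowest Ttr-high library lay above the highest Ttr-low library. The 10 members of the transport list that did not pass had log2 fold changes from -0.07 for Atp1b2 to 0.17 for Slc12a2.

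Of the identity and junction genes, 12 of 16 were called higher, with a median of 0.74. Cldn2, the pore-forming claudin of leaky epithelia, had the smallest p of all genes other than Ttr. It ran from 2.69 to 9.42 CPM in the Ttr-high and from 0.290 to 0.764 CPM in the Ttr-low class (log2 fold change 3.57 ± 0.15, edgeR, adjusted p = 4.41e-24). The paired keratins of simple epithelia rose too, Krt18 by 2.32 ± 0.19 and Krt8 by 2.03 ± 0.19, with reads of Krt8 possibly shared with its pseudogene Krt8-ps, which was also called. Cdh3, P-cadherin, rose by 2.27 ± 0.22. Ezr, Cldn3, Epcam and Msx2 did not pass, at log2 fold changes of 0.11, 0.46, 0.17 and 0.14. Outside the lists, the 15 genes with the smallest p held Col9a3, a chain of collagen IX (1.096 ± 0.07, edgeR, adjusted p = 2.54e-16), and Defb11, a beta-defensin at 0 to 0.107 CPM in the Ttr-low class, that is at most 3 reads. Other beta-defensin genes were called as well, and near-identical copies may share reads.

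**Figure D2:**
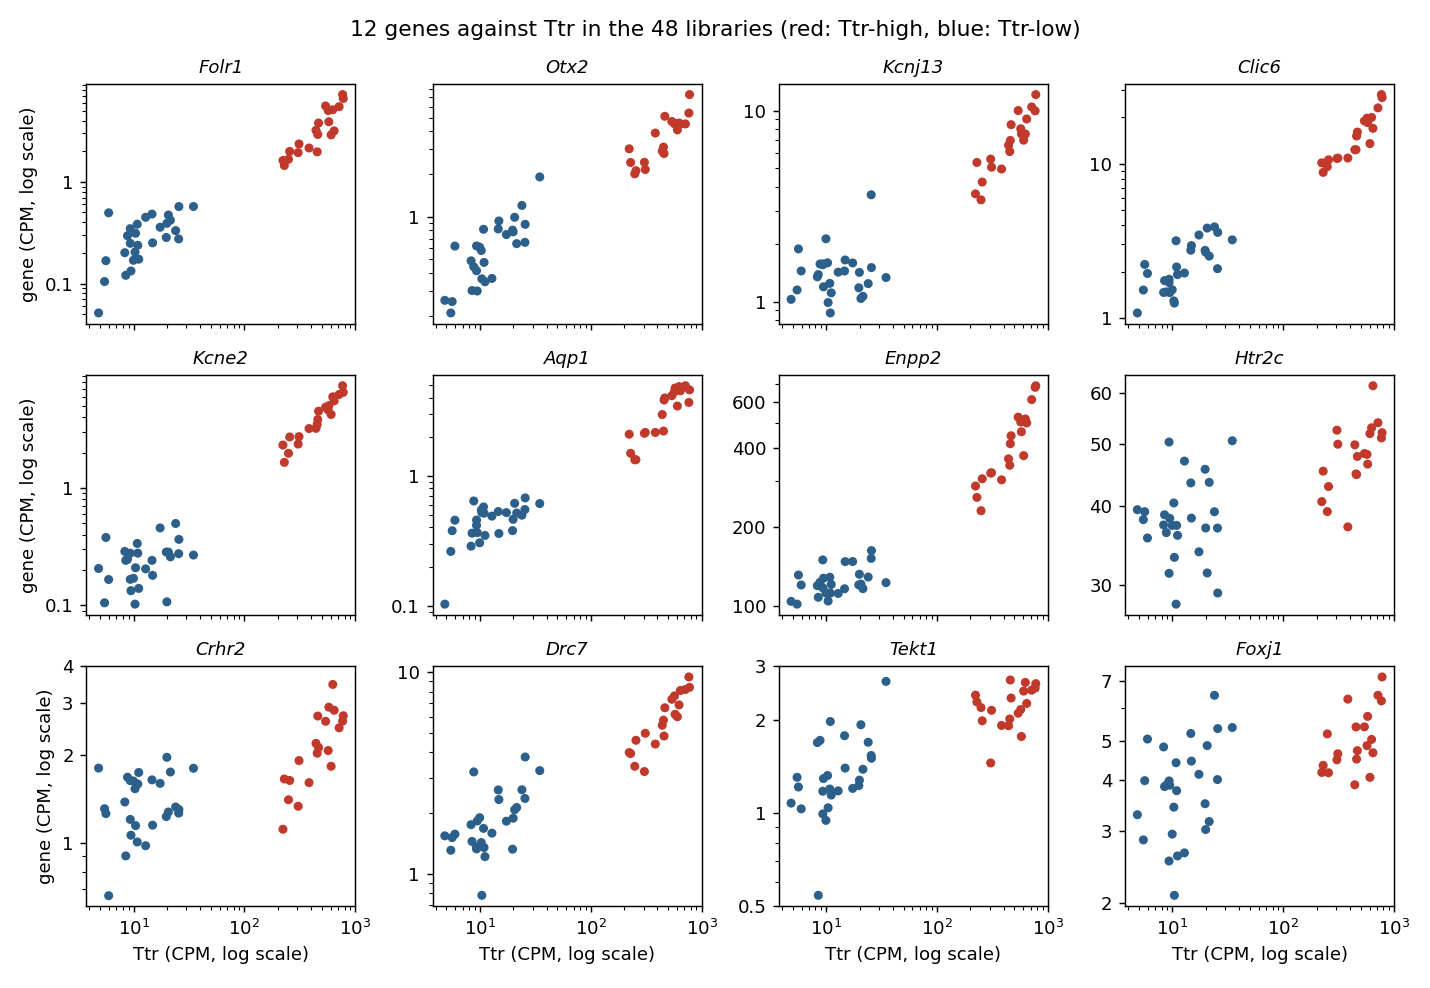
Each panel plots the CPM of 1 gene against the CPM of Ttr in the 48 libraries, both on log axes, with Ttr-high libraries in red and Ttr-low libraries in blue. Folr1, Otx2, Clic6, Kcne2, Aqp1 and Enpp2 leave a gap between the classes, while Htr2c, Crhr2, Tekt1 and Foxj1 are shifted upwards with overlap.

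Lists for the other tissue elements of the choroid plexus held no call. None of 20 genes of stroma and meninges, 11 of endothelium, 6 of fenestrated endothelium, 11 of smooth muscle and pericytes or 11 of border macrophages and MHC class II was called, against 0.798% of all genes called higher, so that a count of 0 in lists of this length lies near the background. Their medians lay between -0.03 and 0.01 on the log2 scale. The summed level of the stroma and meninges list was 175 to 563 CPM (median 263) in the Ttr-high and 154 to 647 CPM (median 281) in the Ttr-low class. The fenestrated endothelium list summed to 41.0 to 56.2 CPM (median 47.3) and 40.9 to 63.9 CPM (median 48.2). Single members with larger values that did not pass were Esm1 (log2 fold change 0.59 ± 0.17, adjusted p = 0.123), Dpep1 (0.52 ± 0.14, adjusted p = 0.0753) and Bmp6 (0.43 ± 0.13, adjusted p = 0.170). Genes outside these lists that fibroblasts and meninges are known to express were among the 249, and those named here were chosen after their values were seen. Fap, fibroblast activation protein, ran from 0.797 to 3.02 CPM in the Ttr-high and from 0.373 to 1.81 CPM in the Ttr-low class (log2 fold change 1.07 ± 0.14, edgeR, adjusted p = 2.19e-07). Scara5, a ferritin receptor, rose by 0.99 ± 0.13, Angptl2 by 0.70 ± 0.12, Pcolce by 0.58 ± 0.11 and Postn, periostin, by 0.41 ± 0.10 on the log2 scale. All 5 overlapped between the classes, and Postn was not called without the libraries with pituitary transcripts described below or without either of 2 single Ttr-high libraries (5-Htt+/+ control replicate 8 and 5-Htt+/- SA replicate 3). Igf2 and Slc13a4, counted in the epithelium lists, are also expressed in meninges. The label of choroid plexus thus rests mainly on genes of its epithelium, and the classes are named by Ttr. Microglia, astrocyte, oligodendrocyte and hippocampal subfield lists held 0 calls among 11, 15, 19 and 20 genes, and their medians ran from -0.07 to -0.04. Blood (6 genes), adult neurogenesis (13) and immediate early genes (16) held no call either, with medians of -0.20, 0.04 and -0.04.

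**Figure D3:**
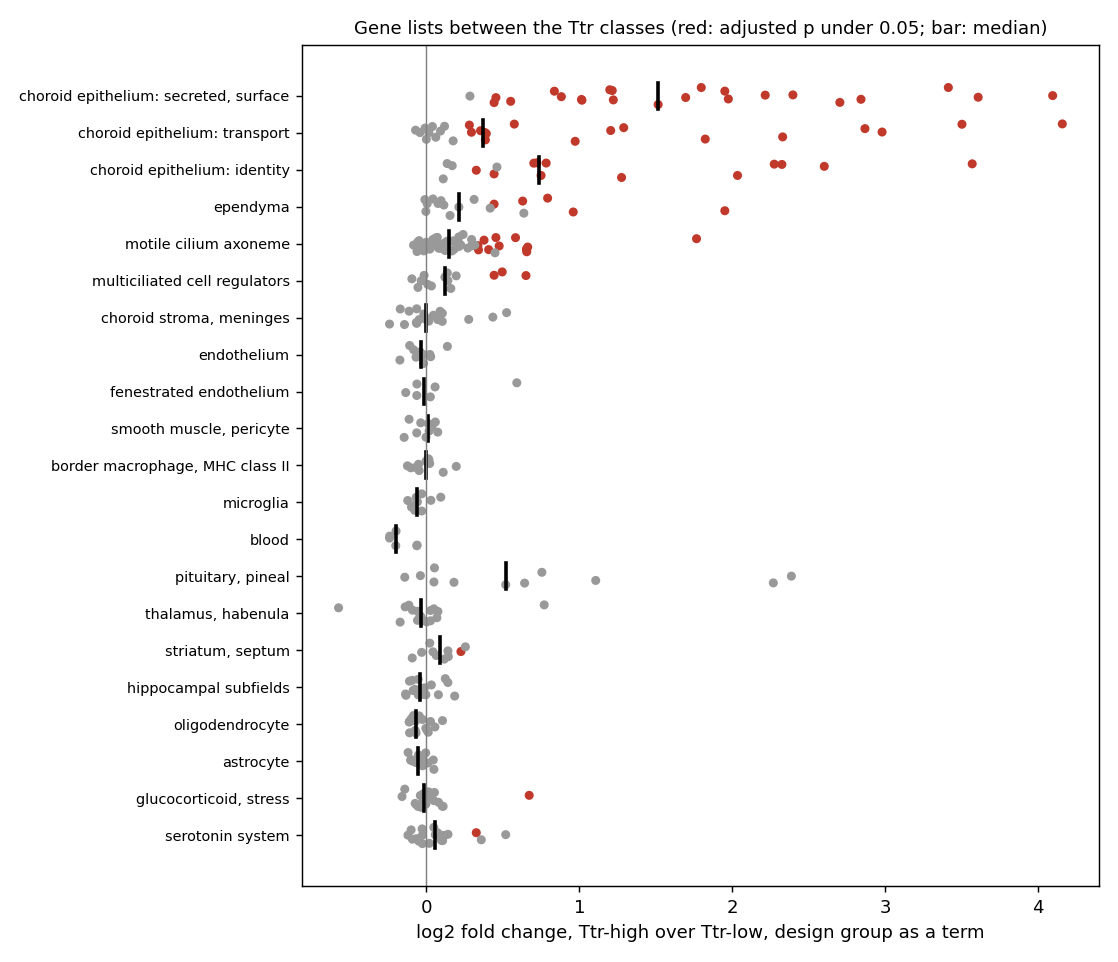
Log2 fold change of each list member (points) between the Ttr classes with the design groups as a term, red where the edgeR adjusted p is under 0.05, and the list median as a bar. The 3 choroid epithelium lists reach 4.16 and hold most of the red points, while stroma, vessel, macrophage and blood lists centre near or below 0.

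Genes of motile cilia were partly higher. Choroid plexus epithelium and the ependyma that lines the ventricles both bear cilia. Motile cilia of the ependymal kind are built from dynein arms, radial spokes, tektins and a central pair under the control of Foxj1. Of 50 axoneme genes 11 were called higher, or 22.0%, against 0.798% of all genes. The list median was 0.15, and none was called lower. Drc7, of the nexin-dynein regulatory complex, stood out at 3.21 to 9.47 CPM in the Ttr-high and 0.781 to 3.79 CPM in the Ttr-low class, a log2 fold change of 1.77 ± 0.13 (edgeR, adjusted p = 7.60e-15). Tekt1, a tektin, ran from 1.46 to 2.70 CPM and from 0.542 to 2.67 CPM (0.65 ± 0.10, adjusted p = 8.82e-06). Spag16 rose by 0.45 ± 0.07, Dnah6, a dynein heavy chain, by 0.66 ± 0.10, and Ccdc108 by 0.58 ± 0.11. All 5 genes overlapped between the classes, and those other than Drc7 changed by less than 2-fold. Dnah6 and Ccdc108 each share their position with another gene called higher, and the strand setting of the counting is not known.

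Of 15 regulators of multiciliated cells, Cdc20b (0.50 ± 0.07), Gmnc (0.65 ± 0.12) and Foxj1 (0.44 ± 0.09) were called higher. Cdc20b overlaps another gene called higher, so its reads may be shared. Of 17 ependymal genes 5 were called, namely Calml4 (1.95 ± 0.15), Mia (0.96 ± 0.18), Dynlrb2 (0.79 ± 0.17), Cfap126 (0.63 ± 0.13) and Foxj1. Calml4 and Foxj1 also stand in the choroid plexus lists. The ependymal list summed to 54.8 to 89.2 CPM in the Ttr-high and 50.1 to 90.6 CPM in the Ttr-low class, so its total overlapped almost fully. Of 21 genes that the study grouped under cilium movement, 5 were called higher, namely Drc7, Wdr63 (1.54 ± 0.18), Tekt1, Dnah6 and Ccdc108, with a list median of 0.09. The study chose these genes on the same libraries. None of the 19 tested genes that the study named for its genotype-dependent contrast was called (median -0.02). With 0.798% of all genes called higher, a count of 0 in a list of this length lies near the background.

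A receptor of serotonin and one of stress peptides moved with the classes. Htr2c, the serotonin 2C receptor, which both neurons and choroid plexus epithelium express, ran from 37.0 to 61.7 CPM (median 48.2) in the Ttr-high and from 28.0 to 50.6 CPM (median 37.7) in the Ttr-low class. Its log2 fold change was 0.33 ± 0.06 (edgeR, adjusted p = 0.000405) and the classes overlapped widely. It was the one call among 21 serotonin genes, or 4.76%, against 0.798% of all genes called higher. Crhr2, receptor 2 of corticotropin-releasing factor, ran from 1.11 to 3.46 CPM (median 2.09) and from 0.662 to 1.96 CPM (median 1.32), a log2 fold change of 0.67 ± 0.11 (edgeR, adjusted p = 5.00e-05). It was the one call among 25 glucocorticoid and stress genes, or 4%, against the same 0.798%. A single call describes the gene and not its list. Slc6a4 was at 0.0604 to 17.0 CPM in the Ttr-high and 0 to 17.3 CPM in the Ttr-low class, both of which held both genotypes.

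The genes called lower were few and low. Gfpt2, an enzyme of hexosamine synthesis, had 3.26 to 5.83 CPM in the Ttr-high and 3.74 to 6.53 CPM in the Ttr-low class (log2 fold change -0.20 ± 0.05, edgeR, adjusted p = 0.0469). The other 3, Gm25083, 2410004I01Rik and Gm44953, had means under 1 CPM in both classes. All 4 overlapped between the classes.

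Genes of neighbouring tissue were examined beside these counts. Gh and Prl, the pituitary hormones growth hormone and prolactin, reached 1 CPM in 7 libraries, of which 5 were Ttr-high and 2 Ttr-low. Prl was at 44.4 CPM in 5-Htt+/+ SA replicate 8 and at most 8.07 CPM elsewhere. Neither gene passed the test (Prl 2.39 ± 0.67, adjusted p = 0.0753, and Gh 2.27 ± 0.63, adjusted p = 0.0788), and none of 11 pituitary and pineal genes did, though their median was 0.52. Within the Ttr-high class, however, Prl rose with Ttr (slope of log2 Prl on log2 Ttr 6.07, edgeR, adjusted p = 0.00391), its highest library being also the highest for Ttr (779 CPM), while Gh did not pass (3.15, adjusted p = 0.419). The part of pituitary transcripts in that slope was not tested. Without the 7 libraries, 189 genes were called higher, 185 of them among the 249, and 45 of the 65 choroid plexus genes, while Foxj1, Postn and Ppp1r1b were among those no longer called. Lists for thalamus and habenula (18 genes) and neocortex (10 genes) held no call. With 0.798% of all genes called higher, counts of 0 in these lists and in the pituitary and pineal list lie near the background. Of 10 genes of striatum and septum, Ppp1r1b, the phosphoprotein DARPP-32, was called (0.23 ± 0.06, adjusted p = 0.0427), and its counts overlap another gene called higher.

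The class comparison was repeated in each genotype label, that is, in 24 separate mice each. In the libraries labelled 5-Htt+/+, 119 genes were called higher (0.398% of those tested), and in those labelled 5-Htt+/- 143 (0.476%). Shared calls numbered 98, which is 82.4% of the former and 68.5% of the latter. All 119 genes called in the libraries labelled 5-Htt+/+ had a positive log2 fold change in those labelled 5-Htt+/-, and of the 141 genes called in the latter that could be tested in the former, 138 were positive, against 49.4% and 45.0% of all genes. Kcne2 changed by 3.91 and 4.43, Cldn2 by 3.47 and 3.67, and Crhr2 by 0.63 and 0.73 on the log2 scale in 5-Htt+/+ and 5-Htt+/-. Within single genotype labels several smaller changes lost their call. Htr2c changed by 0.33 (adjusted p = 0.192) and 0.32 (adjusted p = 0.0304), Tekt1 by 0.60 (adjusted p = 0.149) and 0.72 (adjusted p = 0.00056), and Foxj1 by 0.37 (adjusted p = 0.483) and 0.54 (adjusted p = 0.066). A test of the class effect against the genotype label called 3 genes, none of them among the 249. No lower call was shared by the genotypes.

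**Figure D4:**
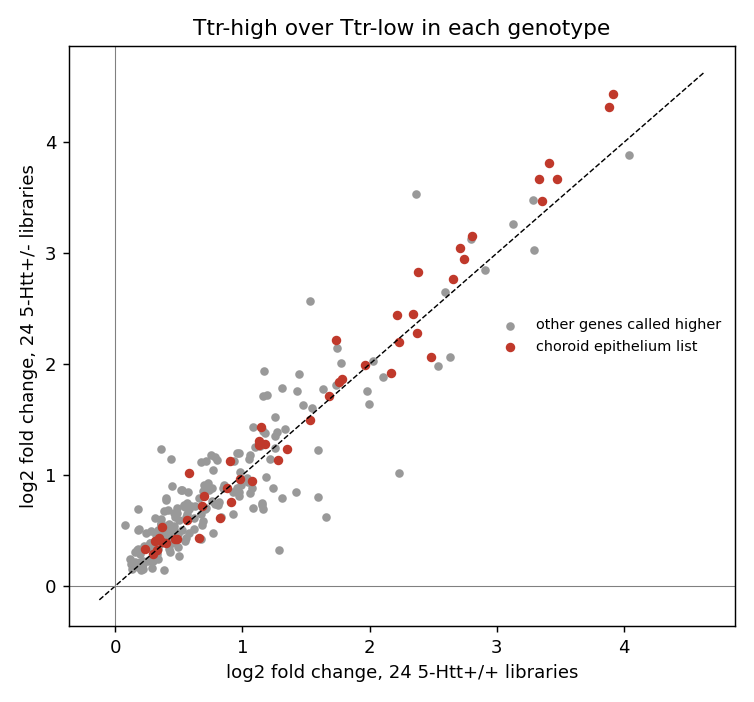
Log2 fold change between the Ttr classes in the 24 libraries labelled 5-Htt+/+ (x) and the 24 labelled 5-Htt+/- (y) for the genes called higher over all 48 libraries, with the choroid epithelium list in red and the line of equal change dashed. The points follow the line up to about 4, and because the genes were called on both genotypes together, their positive sign is not itself a result.

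Within the Ttr-high class the amount of Ttr varied as well, and the rule did not use this variation. Over the 20 libraries, with the design groups as terms, 65 genes rose with log2 Ttr CPM (0.220% of those tested), of which 58 were among the 249, and 2 fell. Prl, which is not among the 249, also rose. Among the 249, 241 had a positive slope, against 50.2% of all genes. The 249 were called by their class difference in a fit that held these same libraries. This share is thus a description and not a separate test. A slope of 1 means that a gene changed in proportion to Ttr. The slope was 1.01 for Kcne2, 1.11 for Folr1, 0.92 for Tmem72, 0.80 for Cldn2 and 0.79 for Clic6. It was 0.70 for Enpp2, 0.72 for Drc7 and 0.53 for Crhr2 (edgeR, adjusted p = 0.0256), and 0.18 for Htr2c and 0.15 for Tekt1, which did not pass (adjusted p = 0.350 and 0.983). Reads of Kcne2 per 1000 reads of Ttr stayed between 6.99 and 10.6 (median 8.48) in the Ttr-high class, while Ttr itself spanned 222 to 779 CPM. In the same class the ratio was 4.36 to 10.3 for Folr1, 6.09 to 13.6 for Otx2 and 22.3 to 45.5 for Clic6.

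The medians of these ratios were higher in the Ttr-low class, where Ttr itself had as few as 94 reads. Ttr is the denominator and also chose the class, so a higher ratio there is partly set by the rule. In the Ttr-low class, Folr1 had 10.6 to 83.3 reads per 1000 reads of Ttr (median 20.2, against 7.30 in the Ttr-high class), Otx2 25.9 to 104 (median 44.7, against 7.92), and Clic6 81.9 to 396 (median 174, against 34.4). The ranges of Kcne2 (5.35 to 67.2, median 17.4, against 8.48) and Tmem72 (8.11 to 89.6, median 30.7, against 15.5) reached below those of the Ttr-high class. Over the 28 libraries a single gene passed the test for a slope on log2 Ttr, Otx2 (slope 0.78 ± 0.13, edgeR, adjusted p = 0.0228). Of the 235 genes among the 249 that could be tested there, 169 had a positive slope, against 54.5% of all genes. These libraries too were in the fit that called the 249, so this share is a description only. The genes whose order over the 48 libraries was most like that of Ttr were Clic6, Otx2, F5, Wdr86, Folr1, Aqp1, Prr32, Drc7, Gm29155 and Krt8. Their Spearman correlation with Ttr, as a description, was 0.759 to 0.949 within the 20 Ttr-high libraries and 0.519 to 0.787 within the 28 Ttr-low libraries, each point being 1 library.

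The class was then used as a term in the contrasts of the study. SA and SU were compared with control and with each other within each genotype label, and the SA-to-SU difference was compared between the labels (5-Htt+/+ minus 5-Htt+/-). With the class left out, the choroid plexus list had a median log2 fold change of 0.41 for SA against SU in 5-Htt+/+ and -0.18 in 5-Htt+/-. With the class as a term the medians were 0.05 and 0.08. Of the 65 genes of this list, 50 were called higher between the classes in these same libraries. The Ttr-high shares of SA and SU ran opposite ways in the labels. A move of these medians with the class term, or of the one given next, was thus largely set in advance. It is not itself a result. In the difference between the labels, the median was 0.54 without the class, with 62 of 65 genes positive, and -0.06 with it, with 24 of 65 positive. Within the Ttr-low libraries alone it was 0.03. Otx2 went from 1.81 ± 0.85 to 0.37 ± 0.40 and Folr1 from 1.46 ± 1.05 to -0.24 ± 0.46 in that contrast (log2 scale, edgeR, adjusted p = 1 for both without the class and 0.937 and 0.965 with it).

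**Figure D5:**
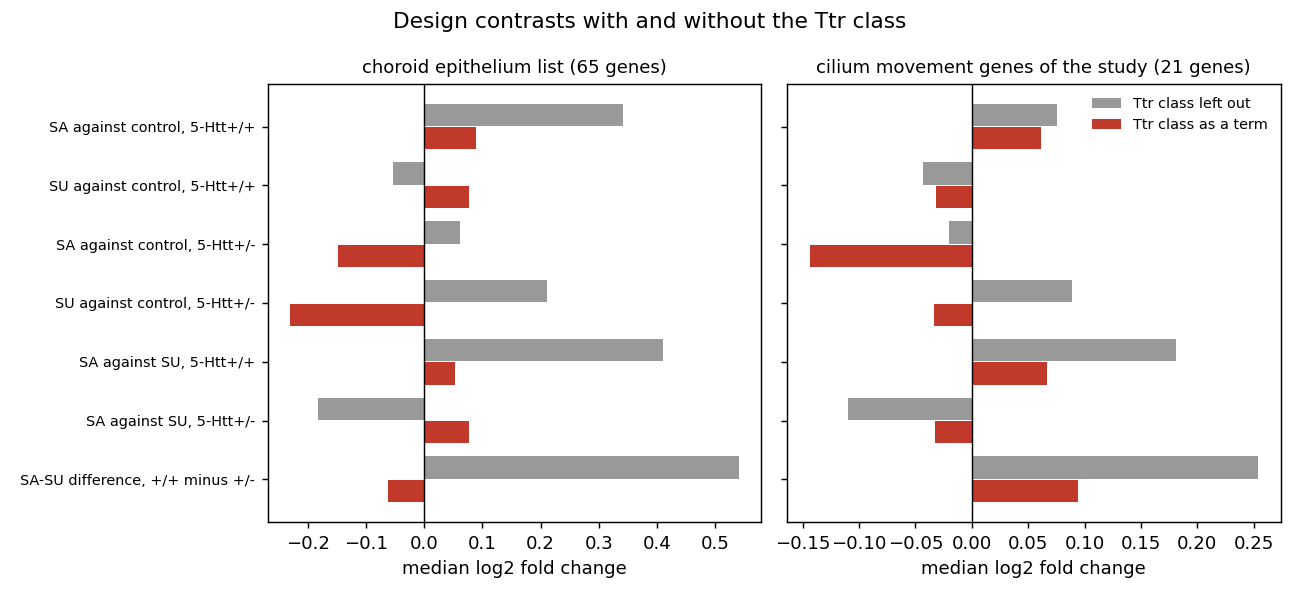
Median log2 fold change of the choroid epithelium list (left) and of the study's cilium movement genes (right) in each design contrast, with the Ttr class left out (grey) and as a term (red), and the SA-SU difference between genotype labels in the bottom row. In that row the medians are 0.54 and -0.06 for the choroid list and 0.25 and 0.09 for the cilium genes. Most of the choroid list was called between the classes, so a move of its median with the class term is not itself a result.

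The cilium movement genes followed with smaller values. In the same contrast between the labels, their median was 0.25 without the class and 0.09 with it, and 6 and 4 of 21 had an unadjusted p under 0.05. Tekt1 went from 0.75 ± 0.31 to 0.33 ± 0.23, Wdr63 from 0.83 ± 0.62 to -0.13 ± 0.41, Drc7 from 0.91 ± 0.62 to -0.18 ± 0.30, Dnah6 from 0.54 ± 0.31 to 0.09 ± 0.24 and Ccdc108 from 0.58 ± 0.30 to 0.19 ± 0.25. Of the 249 genes, 26 had an unadjusted p under 0.05 in this contrast without the class, or 10.4%, against 3.70% of all genes. With the class 8 did, or 3.21%, against 4.89% of all genes. The 249 genes were chosen by their class difference in these same libraries. The Ttr-high shares of SA and SU also ran opposite ways in the labels. A change of these counts with the class term was thus largely set in advance and is not itself a result. No gene was called in this contrast at an adjusted p under 0.05 with edgeR, with or without the class (1156 and 1525 genes at an unadjusted p under 0.05 without and with it). DESeq2 with the class called 0 genes as well. In the contrasts with control in 5-Htt+/-, the count of the 249 genes with an unadjusted p under 0.05 rose with the class term instead, from 15 to 52 for SU (6.02% to 20.9%, against 15.5% and 11.8% of all genes) and from 7 to 32 for SA (2.81% to 12.9%, against 12.1% and 10.4%). The class term does not take up differences of Ttr within a class (given below), and their part in these counts was not tested.

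In the contrasts with control the median of the list moved as well. For SU against control in the libraries labelled 5-Htt+/-, where 1 of 7 control libraries was Ttr-high, the choroid plexus median went from 0.21 to -0.23, and it was -0.20 within the Ttr-low libraries. Those were 3 SU and 6 control libraries. Ttr ran from 5.47 to 10.4 CPM in these SU libraries and from 5.96 to 25.6 CPM in these control libraries, a difference that the class term leaves in place. For SA against control the choroid plexus median went from 0.06 to -0.15 in 5-Htt+/- and from 0.34 to 0.09 in 5-Htt+/+. The calls of these contrasts lay outside the choroid plexus genes. The class term left the count at 4 for SA against control in 5-Htt+/+, took it from 6 to 3 for SU against control in 5-Htt+/+, from 9 to 3 for SA against control in 5-Htt+/- and from 5 to 3 for SU against control in 5-Htt+/-. It added no call. The calls lost for SA in 5-Htt+/- were Pim3, Ppp1r3g, Lfng, Nfkbia, Sdc4 and Mfsd2a, whose log2 fold changes between the classes ran from -0.02 to 0.04. Pim3, a protein kinase, went from -0.41 to -0.40 on the log2 scale and from an adjusted p of 0.0378 to 0.0511 in edgeR. Nfkbia, the inhibitor of NF-kappaB, went from -0.48 to -0.48, with the same adjusted values. Sgk1, a kinase induced by glucocorticoids, stayed called, at -0.62 without and -0.63 with the class. For SU in 5-Htt+/-, Pim3 (-0.40 without and with the class) and RP23-185B22.1 (1.23 and 1.15) were lost. For SU in 5-Htt+/+, Gm10801 (5.93 and 5.66), Gm44799 (-3.12 and -3.07) and Gm44797 (-3.15 and -3.06) were lost. SA against SU gave 0 calls in either genotype label in edgeR, with or without the class (1218 and 1380 genes at an unadjusted p under 0.05 in 5-Htt+/+, 1183 and 1348 in 5-Htt+/-), and 1 each in DESeq2 with the class.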

How the data were processed

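RNA of 48 hippocampal samples was sequenced by the authors as single-end 50-base reads. The study's methods and the submitters' notes name STAR, HTSeq, Salmon and the mm10 or GRCm38.p5 build, without tool versions or a strand setting. The authors deposited 1 table of raw counts for 48440 genes. A gene was tested where 3 or more libraries held 5 or more reads (31208 genes), with edgeR 4.0.16 (quasi-likelihood, upper-quartile scaling, 6 design groups plus the Ttr class, Benjamini-Hochberg adjustment) and DESeq2 1.42.0 as an alternative. Levels are CPM over the column sum. The fit was tested on simulated data with 50 changed genes at each size of change. It called 42 of those changed 1.25-fold, 48 of those changed 1.5-fold and all of those changed 2-fold or 4-fold. It also made 18 false calls among the unchanged genes. The changed genes were drawn from those with a mean above 1 CPM, and no design-group effect was simulated. Recovery of genes under 1 CPM was thus not tested. Members, gene lists and tests were chosen with earlier results of these data known. Named genes were the 4 markers, the 15 higher and up to 10 lower calls with the smallest p, up to 5 members of each list, calls that the class term changed and the 10 genes most like Ttr in rank. Other list members and 5 stromal genes were named after their values were seen. No 2 libraries of a group agreed within sampling noise (smallest chi-square per gene 2.69). Same-numbered libraries did not deviate together (median correlation 0.0149), so numbers were not taken to pair samples.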

Additional observations from a re-analysis of the deposited data

Results flagged for a closer look

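Each design group was checked for a library far from its others (Dixon's gap test at its 95% limit) in Folr1, Otx2, Kcnj13, Htr2c, Crhr2, Drc7, Gh and Prl, 48 checks in all, of which chance alone flags about 1 in 20. Ttr was not checked, because it chose the classes, and the flags of Folr1, Otx2 and Kcnj13 fell on libraries that the classes already set apart. In 5-Htt+/- control, replicate 5, the only Ttr-high library of its group, had 3.90 CPM of Folr1, 4.55 CPM of Otx2 and 7.57 CPM of Kcnj13. In 5-Htt+/+ SU, replicate 5, 1 of 2 Ttr-high libraries, had 5.50 CPM of Folr1, 4.53 CPM of Otx2 and 10.5 CPM of Kcnj13. Crhr2 was at 3.46 CPM in 5-Htt+/- SA replicate 3, a Ttr-high library, against 1.06 to 2.06 CPM in the others.

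Gh stood apart at 11.7 CPM in 5-Htt+/+ SA replicate 8, 1.10 CPM in 5-Htt+/+ control replicate 8, 2.38 CPM in 5-Htt+/- SU replicate 8 and 3.84 CPM in 5-Htt+/- control replicate 5. Prl did so at 44.4 CPM, 0.569 CPM, 6.15 CPM and 8.07 CPM in the same libraries, and at 6.06 CPM in 5-Htt+/+ SU replicate 5. All but 5-Htt+/- SU replicate 8 were Ttr-high, and the part of pituitary transcripts in the class difference was examined by leaving these libraries out, as given above.

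The class difference itself differed between the genotype labels in 3 genes by an interaction term (edgeR), namely Gm37537 (5-Htt+/+ minus 5-Htt+/- -7.20 on the log2 scale, adjusted p = 0.00119), Gm12207 (5.90, adjusted p = 0.00783) and Rpl23a-ps4 (-3.48, adjusted p = 0.0349). None was called between the classes over all libraries.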

How the results depend on the processing

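The classes gave 253 calls, 249 of them higher, and 50 choroid plexus calls. Other settings (TMM or relative log expression scaling, DESeq2, the likelihood ratio test, no or a stricter filter, limits of 50 or 200 CPM, log2 Ttr as a term, no design groups) gave 199 to 296 calls and 45 to 51 choroid plexus calls. With the replicate number as a block (replicate block) the calls were 176, of which 46 were choroid plexus genes. In the libraries of 1 genotype label, that is, in 24 libraries, calls numbered 121 (5-Htt+/+) and 148 (5-Htt+/-). Leaving out each Ttr-high library in turn gave 230 to 263 calls and 50 to 51 choroid plexus calls. Of alternatives added after seeing the data, log2 Ttr within a class gave 67 calls in the Ttr-high and 1 in the Ttr-low class, with 28 and 1 choroid plexus calls. The other added settings gave 190 to 265 calls. The tests of class against group, genotype and condition and of library properties could not change with limits of 50 or 200 CPM, which gave the same classes. Library properties had no other alternative. With log2 Ttr CPM in place of the class, group, genotype and condition did not pass either (permutation tests, adjusted p = 0.876 for each).

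For SA against control in 5-Htt+/+ (4 calls), the counts were 0 with DESeq2, 0 with the earlier quasi-likelihood form of edgeR, 0 in the Ttr-low libraries and 7 with the replicate block. For SU against control in 5-Htt+/+ (3 calls) they were 6 without the class, 0 in the Ttr-low libraries and 0 with the earlier form. For SA against control in 5-Htt+/- (3 calls) they were 26 with DESeq2, 7 without a filter, 7 with log2 Ttr, 9 without the class and 0 in the Ttr-low libraries. For SU against control in 5-Htt+/- (3 calls) they were 67 with DESeq2, 5 without the class and 0 in the Ttr-low libraries, which are fewer samples. For SA against SU, DESeq2 gave 1 in each label. Other causes were not tested.

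Of 45 named genes called between the classes, leaving out a library ended a call only in 2410004I01Rik, Gfpt2, Gm25083, Gm44953, Postn and Ppp1r1b. Under the other scalings, tests, filters, limits and terms, the replicate block and the single genotype labels, 19 lost their call at least once, Htr2c, Tekt1 and Foxj1 among them. Under the added settings 41 did, mostly in the slopes on Ttr within the smaller sets of 20 or 28 libraries, Cldn2, Folr1, Kcne2 and Enpp2 among them. Signs turned in slopes on Ttr within the Ttr-low class for Cdh3 (-0.117), Fap (-0.0425), Gmnc (-0.0686), Gm25083 (0.144), Gfpt2 (0.0672), Gm44953 (0.530) and Esm1 (-0.0846), and within the Ttr-high class for Gfpt2 (0.0611). Prl turned to -0.664 without the libraries with pituitary transcripts. Genes with a few reads per library, such as Defb11, limit what these depths can show.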
